A study of Danio rerio with 6 samples.

Results

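Genes of DNA replication, DNA polymerase subunits and genes named for the cell division cycle were examined in Müller glia (MG) of the zebrafish retina. MG are the glial cells from which fish regenerate lost retinal neurons. The list holds 43 of the 23510 genes of the count table, 16 from the DNA replication sheet, 12 from the DNA polymerase sheet and 15 from the cell division cycle sheet of the study's list of genes that changed with retinal injury, with genes whose names begin with mcm, ncap, ccn or cdk left out. The study presents that list as injury-induced genes under regulation by mycb and mych, and its mycb part was used here. The genes were chosen by their log2 fold change and adjusted p between uninjured and injured Wt MG in these same libraries. That change is given here as a description without a test. All 43 passed the filter on low counts. This series holds 3 groups with 2 libraries each, made from GFP+ cells sorted by FACS from pooled retinas of adult gfap:GFP fish of both sexes. The study also sequenced MG of mych mutant fish, which are not among these samples. Uninjured mycb mutant MG are not among them either. The groups were uninjured Wt, Wt at 2 days after needle poke injuries (Wt 2 dpi), and mycb mutant at 2 days after the same injury (mycb mutant 2 dpi). The mutant carries germline CRISPR indels in mycb, one of the zebrafish Myc genes, bred to homozygosity. Every group carries the gfap:GFP transgene, in which a glial promoter drives GFP in MG, activated MG and MG-derived progenitors, so a library can mix these states. The treatment label of both Wt 2 dpi samples reads none, against their titles and source names, which were followed.

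Before a cell divides, its DNA is copied once from many origins. Cdc6 and Cdt1 load the MCM helicase at origins in G1, geminin blocks Cdt1 after that, and the Cdc7 kinase with Cdc45 and Treslin turns the loaded helicase into a moving one. RPA coats the exposed single strands, polymerase alpha starts each new strand, RFC loads the PCNA clamp, and polymerases delta and epsilon extend the strands. In mitosis the chromosomal passenger complex corrects attachments to the spindle, and the anaphase-promoting complex (APC/C) with Cdc20 starts the separation of chromatids. Most MG of an uninjured adult retina do not divide, and after injury MG re-enter the cell cycle and give rise to progenitors.

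The libraries held between 47088844 and 64353562 counts. Levels are given as CPM, counts scaled by library total and TMM, in the order replicate 1 and replicate 2. They are not corrected for transcript length, and levels of different genes are not compared. Within each group the 2 libraries differed beyond counting noise (chi-square per gene from 47.5 to 118). The study states that its measurements came from distinct samples, without saying how fish were divided between these libraries, and p-values measure only the spread between these libraries, which may be technical. A gene was called where the adjusted p of edgeR's quasi-likelihood test, over 20329 genes, was at most 0.05 and the log2 fold change exceeded 0.5 in size. In bulk RNA of this kind, fewer dividing cells in the sorted sample and less RNA per cell cannot be told apart.

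Together, the 43 genes took 0.0382 and 0.0342% of all counts in uninjured Wt, 0.173 and 0.166% in Wt 2 dpi and 0.0777 and 0.0700% in mycb mutant 2 dpi. The mutant libraries lay between the other groups without overlap. The summed CPM of the 43 genes came to 355 and 350.4 without injury, to 1685 and 1590.3 in Wt 2 dpi, and to 775 and 787 in the mutant. Over the 3904 genes called higher with injury, the mutant sums lay between the other groups as well. They were 131392 and 144344 CPM without injury, 394973 and 367689 in Wt 2 dpi and 229604 and 270482 in the mutant. As the rule required, the genes stood higher in Wt 2 dpi than in uninjured Wt, with a median log2 difference of 3.17 and a range from 0.68 (cdc73) to 8.84 (cdca7a), and 42 of 43 (all but polq) were called in this fit, where 19.2% of all genes were called higher. The genes nearest the edge of the list were cdc73 and polh, with injury log2 differences of 0.68 and 0.73. cdc73 stood at 35.4 and 35 CPM in uninjured Wt, 58.8 and 54.1 in Wt 2 dpi and 36.4 and 46.4 in the mutant. Just outside the list were cdc27, an APC/C subunit, and cdc42, with differences of 0.40 and 0.20. cdc27 stood at 27.6 and 30.5 CPM in uninjured Wt, 39 and 37.7 in Wt 2 dpi and 23.4 and 24.4 in the mutant. cdc42 stood at 85 and 95.4 CPM in uninjured Wt, 94.2 and 113 in Wt 2 dpi and 103 and 138 in the mutant, and its estimate between mutant and Wt 2 dpi was positive without a call (log2 fold change 0.22, SE 0.19, edgeR adjusted p = 0.478). In uninjured Wt, 13 of the 43 genes were under 1 CPM in both libraries, and all 13 were above 1 CPM in each of the 4 injured libraries. The rule chose genes that rose in Wt 2 dpi, so their level there follows from the choice. The matching share over all genes was not counted.

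**Figure D1:**
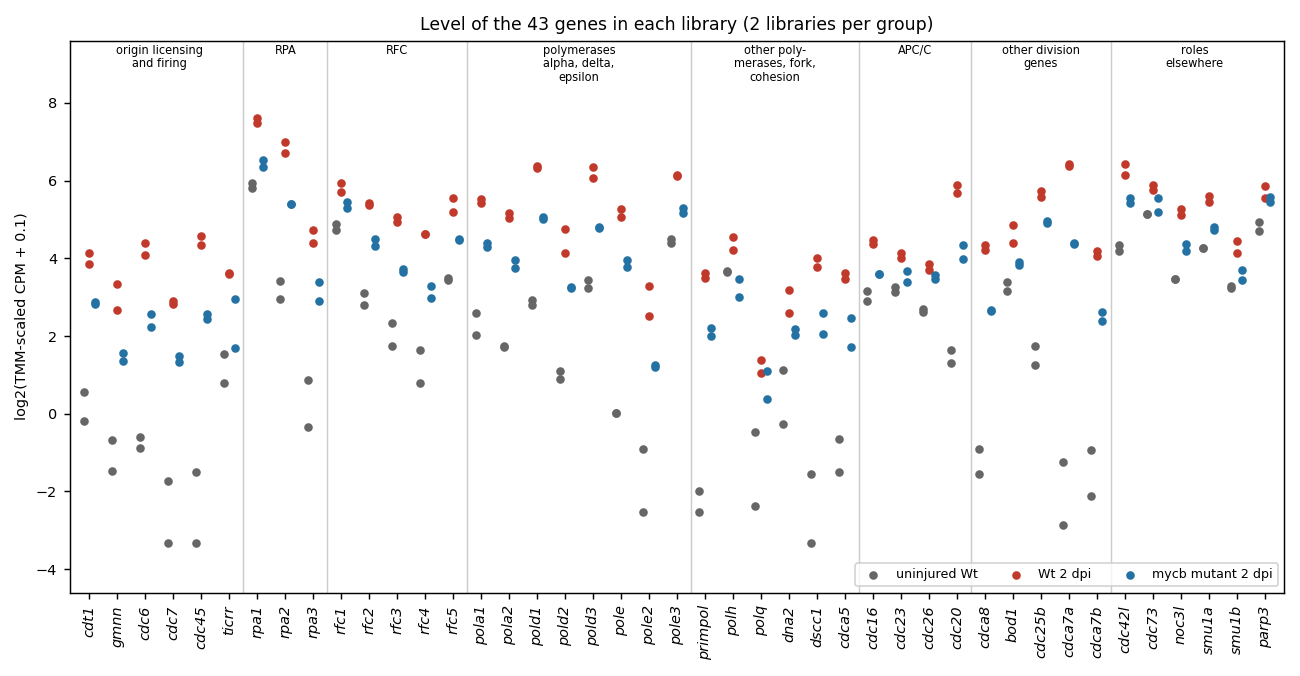
Level of each of the 43 genes in the 6 libraries, as log2(TMM-scaled CPM + 0.1), ordered by role, with 2 points per group. The mutant points lie below both Wt 2 dpi points for 41 genes and above both uninjured points for 42 genes, and the uninjured points spread widely for several genes near 0 CPM.

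In the mycb mutant at 2 dpi, 32 of the 43 genes were called lower than in Wt at 2 dpi and 0 were called higher. Over all genes tested, 12.2% were called lower and 8.21% higher, and among the 3904 genes that were called higher with injury, 38.4% were called lower. All 43 estimates were negative, with a median log2 fold change of -1.15 and a range from -2.03 (cdca7a) to -0.20 (parp3). Negative estimates were also found for 11397 of 20329 genes tested and for 3557 of the 3904 genes called higher with injury. The median was -0.13 over all genes and -0.70 over the genes called higher with injury. At an unadjusted edgeR p under 0.05, 38 genes were lower and 0 were higher, and DESeq2 also called 0 higher. Such a p, in either direction, was found for 6816 of the 20329 genes tested. Among the 3904 genes called higher with injury it was found for 2349. Both mutant libraries were below both Wt 2 dpi libraries for 41 genes, all but polq and parp3. For all genes this held in 36.3%, and for genes called higher with injury in 80.9%. The Wt 2 dpi libraries also served to choose the list, so chance deviations that raise them also enlarge the difference from the mutant. The count of 32 was 15 without Wt 2 dpi replicate 1, 16 without mutant replicate 1 and 14 without mutant replicate 2, where a group is left with 1 library that is assumed to vary like the others.

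Most of the 43 genes were also higher in the injured mutant than in uninjured Wt. Without an uninjured mutant, genotype and injury differ together here, and the level of the mutant before injury is unknown. In this comparison 34 of the 43 genes were called higher, where 12.2% of all genes and 51.5% of the genes called higher with injury were called. DESeq2 called 36 higher. The median log2 fold change was 2.04 (0.02 over all genes, 0.82 over genes called higher with injury), and both mutant libraries exceeded both uninjured libraries for 42 genes, all but polh, against 32.6% of all genes and 81.8% of those called higher with injury. This comparison shares the uninjured libraries with the choice of the list. Called lower than Wt 2 dpi and higher than uninjured were 27 genes, called lower only were 5 (polh, cdc16, bod1, smu1a and smu1b), called higher only were 7 (cdc7, rfc1, pole2, dna2, dscc1, cdc26 and parp3), and called in neither were 4 (ticrr, polq, cdc23 and cdc73). These joint counts were not made over all genes. The mutant mean lay between the means of the other groups for 42 of the 43 genes. The same held for 3263 of the 3904 genes called higher with injury. On the linear scale, the mutant mean reached a median of 44.9% of the Wt 2 dpi level, or 32.5% of the Wt gain over uninjured. For 33 genes the share of the gain was between 25 and 45%. The median share of the gain was 38.6% over all genes called higher with injury, which also lies between 25 and 45%. How many of those genes fell in that range was not counted. The Wt gain itself entered the choice of the list.

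**Figure D2:**
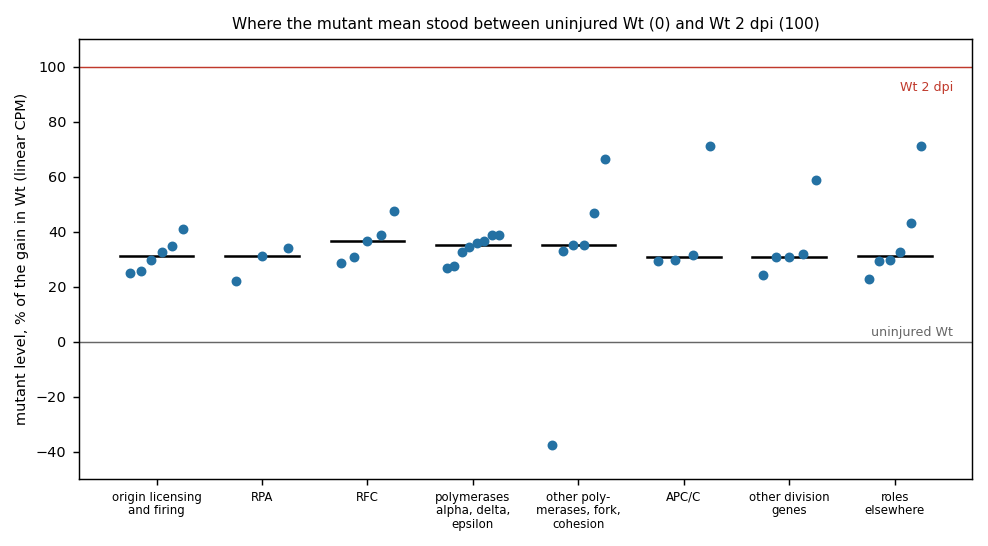
Mean level of each gene in the mycb mutant at 2 dpi as a percentage of the gain from uninjured Wt (0) to Wt 2 dpi (100), on linear CPM, by role, with a bar at each median. The medians of the 8 roles lie between 30.7 and 36.8%, polh is at -37.8%, and the largest shares are those of parp3 (71.3%) and cdc26 (71.0%).

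The sorted samples also differed in cell type markers, all taken from the study's list of genes that changed in both comparisons, so that their calls are not independent of it. All 7 MG markers were called lower in the mutant than in Wt 2 dpi (median log2 fold change -1.79). Their summed levels were 2845 to 3468 CPM in uninjured Wt, 12153 to 13120.4 in Wt 2 dpi and 3047 to 4169 in the mutant. Most of each sum was apoeb. This gene stood at 2457 and 2082 CPM in uninjured Wt, 9997 and 9289 in Wt 2 dpi and 2140 and 2847 in the mutant. gfap, whose promoter drives the GFP used for sorting, stood at 196 and 159 CPM in uninjured Wt, 837 and 705 in Wt 2 dpi and 162 and 246 in the mutant. For these 7 markers the mutant mean reached a median of 4.49% of the gain, from -23.4% (sox9a) to 25.3% (vim). Both mutant libraries exceeded both uninjured libraries for 2 of the 7 (vim and cdh2). The markers come from genes listed for a change in the mutant, so this median is not set against that of the 43 genes. All 12 rod markers and all 10 cone markers were called higher in the mutant than in Wt 2 dpi. Summed rod markers were 10567 to 18601 CPM in uninjured Wt, 892 to 1521 in Wt 2 dpi and 9037 to 10714 in the mutant. Summed cone markers were 21935 to 32598.5 CPM, 14306 to 14734 and 38685 to 42886 in the same order. Most of each rod sum was rho. The microglia marker lcp1 stood at 1.9 and 3.17 CPM in uninjured Wt, 7.14 and 11.2 in Wt 2 dpi and 18.1 and 25.4 in the mutant (log2 fold change 1.25, SE 0.33, edgeR adjusted p = 0.0259). lcp1 was the only gene of the microglia list and, like the other markers, was listed for a change in the mutant. Its level alone does not give the number of microglia, which was not tested. By antibody staining, the study reports fewer microglia in mycb mutant retinas than in Wt after NMDA injection, an injury other than needle poke. No marker was at 0 in any group. The part of cell composition in the differences of the 43 genes was not tested. With TMM factors computed without the 12 rod and 10 cone markers, the calls of all 43 genes against Wt 2 dpi were the same as before. This setting changed only the scaling, and by little (median over all genes -0.123 against -0.126). It is not a test of cell content.

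The genes that license and fire origins were among those with large differences. Of 6 genes, 4 were called lower in the mutant and 2 were not, with a median log2 fold change of -1.55. Of all genes called higher with injury, 38.4% were called lower. cdc6 (ENSDARG00000009942), which loads the helicase, stood at 0.556 and 0.442 CPM in uninjured Wt, 16.9 and 21 in Wt 2 dpi and 5.87 and 4.61 in the mutant (log2 fold change -1.85, SE 0.29, edgeR adjusted p = 0.00255). Its injured groups did not overlap, and the mutant mean was 27.7% of the Wt 2 dpi mean. cdc45 (ENSDARG00000043720), a part of the active helicase, stood at 0.253 and 0 CPM in uninjured Wt, 23.7 and 20.05 in Wt 2 dpi and 5.85 and 5.29 in the mutant (log2 fold change -1.97, SE 0.51, edgeR adjusted p = 0.023). It was called in 10 of 15 alternatives and not by DESeq2, where its adjusted p of 0.388 was the largest over them (smallest 2.26e-08). It was nearly undetected without injury and was called higher in the mutant than in uninjured Wt (log2 fold change 5.39, edgeR adjusted p = 0.000467). The loading factor cdt1 (ENSDARG00000051854) stood at 1.38 and 0.773 CPM in uninjured Wt, 17.4 and 14.3 in Wt 2 dpi and 6.97 and 7.27 in the mutant (log2 fold change -1.15, SE 0.31, edgeR adjusted p = 0.0283). Its inhibitor geminin, encoded by gmnn (ENSDARG00000035957), stood at 0.522 and 0.258 CPM in uninjured Wt, 9.96 and 6.25 in Wt 2 dpi and 2.88 and 2.46 in the mutant (log2 fold change -1.6, SE 0.46, edgeR adjusted p = 0.0338), so that activator and inhibitor were both lower in both mutant libraries. Over 15 alternatives, cdt1 was called lower in 10 and gmnn in 11.

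The kinase gene cdc7 (ENSDARG00000023584) and ticrr (ENSDARG00000045605), which encodes Treslin, were not called. cdc7 stood at 0.202 and 0 CPM in uninjured Wt, 6.97 and 7.44 in Wt 2 dpi and 2.42 and 2.71 in the mutant, with no overlap between the injured groups but a wide interval (log2 fold change -1.49, 95% interval -3.06 to 0.08, edgeR adjusted p = 0.169). Its uninjured libraries were near 0, one of them at 0. For ticrr the 2 mutant libraries differed from each other, at 2.8 and 1.64 CPM in uninjured Wt, 12.1 and 11.9 in Wt 2 dpi and 7.69 and 3.12 in the mutant (log2 fold change -1.15, edgeR adjusted p = 0.0937), and the higher of them was still below both Wt 2 dpi libraries. ticrr was not called against uninjured Wt either (log2 fold change 1.28, edgeR adjusted p = 0.0612).

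All 3 RPA subunit genes were called lower (38.4% of all genes called higher with injury), with a median log2 fold change of -1.41. The largest subunit gene, rpa1 (ENSDARG00000003938), already had a sizeable level without injury, at 61.4 and 55.8 CPM in uninjured Wt, 194 and 177 in Wt 2 dpi and 92.1 and 81.7 in the mutant (log2 fold change -1.1, SE 0.17, edgeR adjusted p = 0.00237). In the mutant it stood at 22.2% of the Wt gain and was called higher than in uninjured Wt (log2 fold change 0.57, edgeR adjusted p = 0.0305). rpa2 (ENSDARG00000037188) stood at 7.68 and 10.7 CPM in uninjured Wt, 126 and 105 in Wt 2 dpi and 42.2 and 42.3 in the mutant (log2 fold change -1.45, SE 0.20, edgeR adjusted p = 0.00173), with the mutant libraries nearly equal. rpa3 (ENSDARG00000002613) stood at 0.691 and 1.73 CPM in uninjured Wt, 26.6 and 20.9 in Wt 2 dpi and 7.37 and 10.5 in the mutant (log2 fold change -1.41, SE 0.37, edgeR adjusted p = 0.0255). The 3 genes had injury log2 differences of 1.66, 3.66 and 4.3.

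Of the 5 genes of the clamp loader RFC, 4 were called lower (38.4% of all genes called higher with injury), with a median of -1.0. rfc1 (ENSDARG00000054799), the large subunit, was not called, at 26.2 and 29.4 CPM in uninjured Wt, 52 and 60.8 in Wt 2 dpi and 39.3 and 43.5 in the mutant (log2 fold change -0.45, 95% interval -0.85 to -0.05, edgeR adjusted p = 0.111). Its mutant libraries were nonetheless below both Wt 2 dpi libraries. The small subunit gene rfc4 (ENSDARG00000042458) stood at 3.01 and 1.64 CPM in uninjured Wt, 24.8 and 24.6 in Wt 2 dpi and 9.75 and 7.73 in the mutant (log2 fold change -1.5, SE 0.30, edgeR adjusted p = 0.00769). rfc3 (ENSDARG00000055969) was at 3.27 and 4.91 CPM in uninjured Wt, 30.3 and 33.6 in Wt 2 dpi and 13 and 12.4 in the mutant, with a log2 fold change of -1.33 (edgeR adjusted p = 0.00494). The other small subunits rfc2 (ENSDARG00000014274) and rfc5 (ENSDARG00000035634) had log2 fold changes of -1.0 and -0.90 (edgeR adjusted p = 0.00778 and 0.0119). The interval of rfc1 overlapped that of rfc4 (95% interval -2.17 to -0.82) by a narrow margin, and differences between subunits were not tested. All 5 were called higher in the mutant than in uninjured Wt (51.5% of all genes called higher with injury).

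Genes of the replicative polymerases were called lower in 7 of 8 cases (38.4% of all genes called higher with injury), with a median of -1.28. Both mutant libraries were below both Wt 2 dpi libraries for all 8 (80.9% of all genes called higher with injury). All 8 were called higher in the mutant than in uninjured Wt (51.5% of all genes called higher with injury). For polymerase alpha, which makes the primers together with primase, the catalytic subunit gene pola1 (ENSDARG00000045308) stood at 3.97 and 5.89 CPM in uninjured Wt, 42.9 and 45.7 in Wt 2 dpi and 19.6 and 20.9 in the mutant (log2 fold change -1.13, SE 0.22, edgeR adjusted p = 0.00746). Its partner pola2 (ENSDARG00000015070) had a log2 fold change of -1.25 (edgeR adjusted p = 0.00322). For polymerase delta, the lagging-strand enzyme, the catalytic subunit gene pold1 (ENSDARG00000027689) stood at 6.82 and 7.49 CPM in uninjured Wt, 83.4 and 80.7 in Wt 2 dpi and 32.3 and 33.5 in the mutant (log2 fold change -1.32, SE 0.17, edgeR adjusted p = 0.00133). It had the smallest adjusted p of the list, and the replicates of each injured group differed little. The accessory subunit gene pold3 (ENSDARG00000076169) stood at 10.8 and 9.37 CPM in uninjured Wt, 81.1 and 66.5 in Wt 2 dpi and 28 and 27.4 in the mutant (log2 fold change -1.41, SE 0.19, edgeR adjusted p = 0.0015), and pold2 (ENSDARG00000095046) had a log2 fold change of -1.25 (edgeR adjusted p = 0.0112). The 3 delta subunits lay between -1.41 and -1.25, within each other's errors.

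For polymerase epsilon, the leading-strand enzyme, the catalytic subunit gene pole (ENSDARG00000058533) was under 1 CPM without injury, at 0.909 and 0.92 CPM in uninjured Wt, 38.2 and 33.5 in Wt 2 dpi and 13.5 and 15.4 in the mutant (log2 fold change -1.31, SE 0.21, edgeR adjusted p = 0.00279). pole3 (ENSDARG00000008551), a histone-fold subunit, had a higher level without injury, at 22.3 and 21 CPM in uninjured Wt, 69.8 and 71.1 in Wt 2 dpi and 38.9 and 36.1 in the mutant (log2 fold change -0.91, SE 0.17, edgeR adjusted p = 0.00504). pole2 (ENSDARG00000100028) had the most negative estimate of the replicative polymerases and was not called, at 0.438 and 0.0736 CPM in uninjured Wt, 9.6 and 5.63 in Wt 2 dpi and 2.27 and 2.21 in the mutant (log2 fold change -1.76, 95% interval -3.15 to -0.38, edgeR adjusted p = 0.0741). Its Wt 2 dpi libraries differed widely from each other and its uninjured libraries were near 0, so the failed call does not show that pole2 was unchanged.

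**Figure D3:**
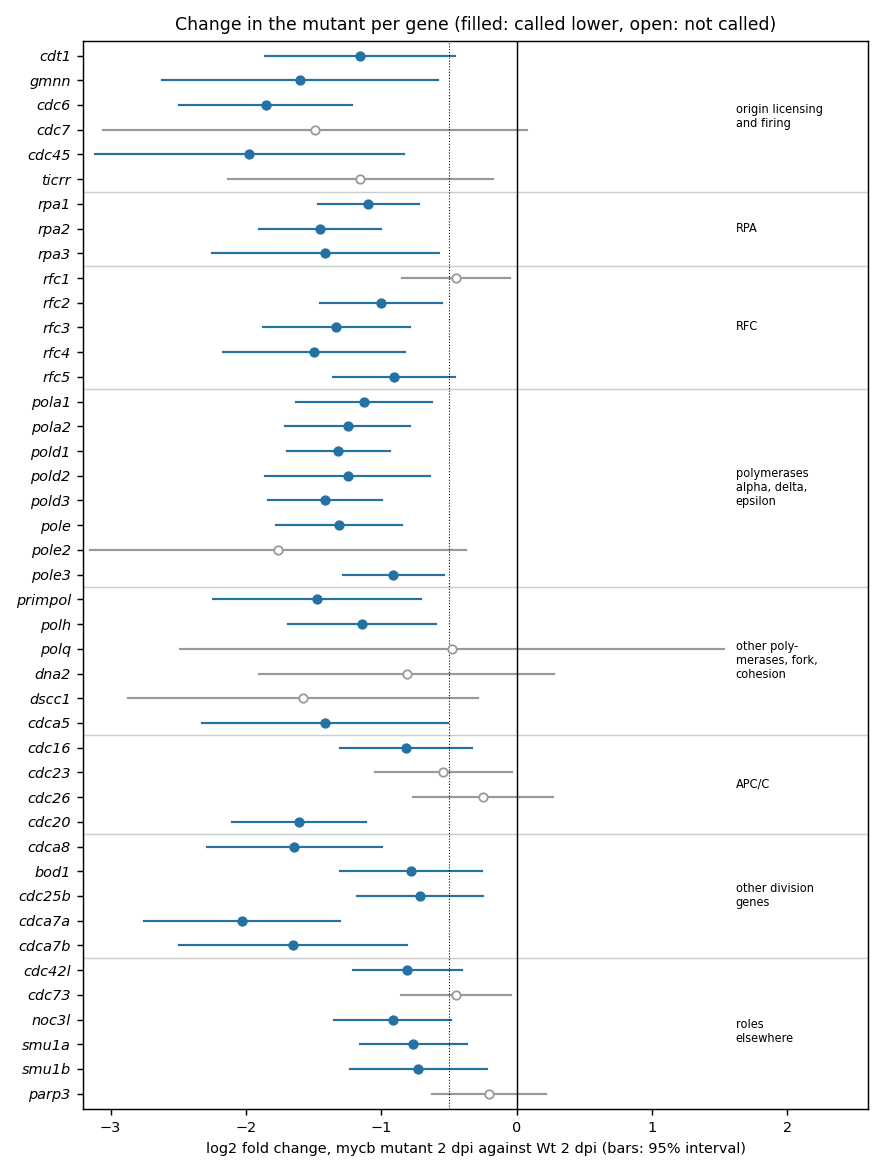
Log2 fold change of each gene between mycb mutant 2 dpi and Wt 2 dpi from the edgeR fit of all 6 libraries, with its 95% interval (filled points called lower, open points not called, dotted line at -0.5). All 43 points lie below 0, 32 are filled, and the intervals of cdc7, pole2 and polq are among the widest.

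Genes of polymerases and factors that act at stalled forks, at breaks or on cohesion all had negative estimates, and 3 of 6 were called lower. With 6 genes, this count is not far from the 38.4% called lower among all genes called higher with injury. primpol (ENSDARG00000033273), which restarts synthesis ahead of a block, stood at 0.152 and 0.0736 CPM in uninjured Wt, 11.2 and 12.3 in Wt 2 dpi and 4.53 and 3.91 in the mutant (log2 fold change -1.48, SE 0.34, edgeR adjusted p = 0.0145). polh (ENSDARG00000070231), the translesion polymerase for ultraviolet lesions, was the 1 gene whose mutant mean lay below its uninjured mean, at 12.6 and 12.4 CPM in uninjured Wt, 23.2 and 18.4 in Wt 2 dpi and 7.94 and 10.9 in the mutant (log2 fold change -1.14, SE 0.24, edgeR adjusted p = 0.0102). The difference from uninjured Wt was not called (log2 fold change -0.41, edgeR adjusted p = 0.256). cdca5 (ENSDARG00000044437), which encodes sororin, a protector of cohesin between sister chromatids, stood at 0.253 and 0.534 CPM in uninjured Wt, 10.9 and 12.2 in Wt 2 dpi and 3.2 and 5.47 in the mutant (log2 fold change -1.42, SE 0.41, edgeR adjusted p = 0.0349). The groups of cdca5 did not overlap, and it was called lower in 10 of 15 alternatives.

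The remaining genes of this kind were not called. dscc1 (ENSDARG00000019907), a subunit of the alternative clamp loader for cohesion, stood at 0 and 0.239 CPM in uninjured Wt, 16.1 and 13.5 in Wt 2 dpi and 4.03 and 5.9 in the mutant (log2 fold change -1.58, edgeR adjusted p = 0.0848). The nuclease-helicase gene dna2 (ENSDARG00000078759) was at 2.09 and 0.736 CPM in uninjured Wt, 5.9 and 8.93 in Wt 2 dpi and 3.98 and 4.47 in the mutant (log2 fold change -0.81, 95% interval -1.9 to 0.28, edgeR adjusted p = 0.284). polq (ENSDARG00000044622), the end-joining polymerase theta, was low in every group, at 0.623 and 0.092 CPM in uninjured Wt, 2.53 and 1.97 in Wt 2 dpi and 2.03 and 1.2 in the mutant, and one mutant library exceeded one Wt 2 dpi library. Its interval (95% interval -2.48 to 1.53) spans a fall and a rise alike, so no difference was detectable at this depth.

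Within the APC/C, the ubiquitin ligase that ends mitosis, 2 of the 4 genes were called lower. With 4 genes, this count is not far from the 38.4% called lower among all genes called higher with injury. cdc20 (ENSDARG00000100741), the activator, stood at 2.36 and 3.02 CPM in uninjured Wt, 50.9 and 58.9 in Wt 2 dpi and 20.1 and 15.8 in the mutant (log2 fold change -1.61, SE 0.22, edgeR adjusted p = 0.00167). The core subunit cdc16 (ENSDARG00000055470) was called lower, at 7.36 and 8.85 CPM in uninjured Wt, 22 and 20.4 in Wt 2 dpi and 11.9 and 12.1 in the mutant (log2 fold change -0.82, SE 0.22, edgeR adjusted p = 0.0257), but it was not called against uninjured Wt (log2 fold change 0.57, edgeR adjusted p = 0.0879). It was called lower in 9 of 15 alternatives. cdc23 (ENSDARG00000044484) and cdc26 (ENSDARG00000077815) were not called, with log2 fold changes of -0.54 (95% interval -1.05 to -0.03, edgeR adjusted p = 0.127) and -0.25 (95% interval -0.77 to 0.27, edgeR adjusted p = 0.511). The core subunits also had small injury differences (1.39, 0.88 and 1.13 on the log2 scale, against 4.35 for cdc20), and the activator was not tested against them. cdc27, the subunit just outside the list, was called lower in the mutant (log2 fold change -0.68, SE 0.18, edgeR adjusted p = 0.0237), and its mutant libraries, at 23.4 and 24.4 CPM, were also below its uninjured libraries, without a call there (log2 fold change -0.28, edgeR adjusted p = 0.288).

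All 5 of the other division genes were called lower (38.4% of all genes called higher with injury), with a median of -1.64. cdca7a (ENSDARG00000077620) had the largest difference of the list, both with injury and in the mutant, at 0.32 and 0.0368 CPM in uninjured Wt, 82.8 and 86.7 in Wt 2 dpi and 20.7 and 20.9 in the mutant (log2 fold change -2.03, SE 0.32, edgeR adjusted p = 0.00286). DESeq2 gave a similar estimate without a call, and cdca7a was called in the other 14 of 15 alternatives. Its paralog cdca7b (ENSDARG00000076659) stood at 0.421 and 0.129 CPM in uninjured Wt, 18.2 and 16.7 in Wt 2 dpi and 5.11 and 6.01 in the mutant (log2 fold change -1.65, SE 0.38, edgeR adjusted p = 0.0133). Both encode zinc-finger proteins, and human CDCA7 is known as a MYC-responsive gene whose product works with the chromatin remodeller HELLS. Reads shared between the paralogs could have been split by the counting, so the single values and their common direction are both less certain. This was not tested. cdca8 (ENSDARG00000043137), which encodes borealin of the chromosomal passenger complex, stood at 0.438 and 0.239 CPM in uninjured Wt, 18.5 and 20.2 in Wt 2 dpi and 6.19 and 6.23 in the mutant (log2 fold change -1.64, SE 0.29, edgeR adjusted p = 0.0043), with mutant replicates almost equal.

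cdc25b (ENSDARG00000010792), the phosphatase gene that activates cyclin-dependent kinase for entry into mitosis, stood at a larger share of the Wt gain than most. Its levels were 3.25 and 2.3 CPM in uninjured Wt, 47.4 and 52.8 in Wt 2 dpi and 29.9 and 31.3 in the mutant (log2 fold change -0.71, SE 0.21, edgeR adjusted p = 0.0379). The mutant reached 58.8% of the Wt gain for cdc25b, against 30.8% for cdca8 and 29.3% for cdc20. bod1 (ENSDARG00000103922), needed for chromosome biorientation, had small changes, at 8.77 and 10.4 CPM in uninjured Wt, 28.7 and 20.9 in Wt 2 dpi and 14.9 and 14 in the mutant (log2 fold change -0.78, SE 0.23, edgeR adjusted p = 0.0411), and was not called against uninjured Wt (log2 fold change 0.59, edgeR adjusted p = 0.0971). cdc25b and bod1 were each called lower in 8 of 15 alternatives, and RLE size factors ended both calls.

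For 6 genes the known roles lie elsewhere, in transcription, splicing, ribosome assembly, signalling or repair. Of these, 4 were called lower (38.4% of all genes called higher with injury), with a median of -0.75. They were noc3l (ENSDARG00000002487), a nucleolar factor of the large ribosomal subunit (log2 fold change -0.91, SE 0.19, edgeR adjusted p = 0.00947), the splicing factor genes smu1a (ENSDARG00000002538) and smu1b (ENSDARG00000051970) (log2 fold changes -0.76 and -0.73, edgeR adjusted p = 0.0144 and 0.0478), and cdc42l (ENSDARG00000040158) (log2 fold change -0.81, SE 0.18, edgeR adjusted p = 0.012). smu1b was called in only 4 of 15 alternatives, not by DESeq2, with RLE size factors, with glmTreat, in the fit of the compared groups, with the replicate block, or with any library left out. The paralogs smu1a and smu1b could share reads, and so could cdc42l and cdc42. cdc73 (ENSDARG00000020201), a subunit of the PAF1 elongation complex, was not called (log2 fold change -0.45, edgeR adjusted p = 0.118). parp3 (ENSDARG00000003961), an ADP-ribosyltransferase of strand-break repair, had the smallest difference, at 30.7 and 25.8 CPM in uninjured Wt, 57.8 and 47 in Wt 2 dpi and 47.5 and 43.4 in the mutant (log2 fold change -0.20, 95% interval -0.62 to 0.21, edgeR adjusted p = 0.5). Without these 6 genes, 28 of 37 were called lower (38.4% of all genes called higher with injury) and the median was -1.31.

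Among the 11 genes without a call, 4 had a log2 fold change of -1 or below (cdc7, ticrr, pole2 and dscc1). The median standard error was 0.44 for the genes without a call and 0.23 for those called. In the fit of the compared groups only, cdc7, pole2 and dscc1 were called lower. Without the filter on low counts, cdc7, ticrr, pole2 and dscc1 were called lower. A missing call among the 11 genes does not show an equal level.

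Across 15 alternatives in processing, 11 genes were called lower in each, namely cdc6, rpa1, rpa2, rfc3, pola1, pola2, pold1, pold3, pole, cdc20 and cdca8. Among the alternatives, adjusted p alone kept the main fit without the fold limit and could not lose a call. The share of all genes called in each alternative was not counted. The 11 genes include each catalytic subunit gene of the replicative polymerases. The other genes called lower in the main fit were called in 4 (smu1b) to 14 of the 15 alternatives. The genes polq, dna2, cdc23, cdc26 and parp3 were called in none.

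Genes of the same processes that are not in the list were taken from a list written with earlier results of these data known. Of 26 other replication genes, 22 were called lower in the mutant than in Wt 2 dpi (12.2% of all genes, 38.4% of those called higher with injury). The median was -1.56, and all 26 estimates were negative. Against uninjured Wt, 21 of the 26 were called higher (12.2% of all genes, 51.5% of those called higher with injury). pcna, the sliding clamp that RFC loads, stood at 35.1 and 42.9 CPM in uninjured Wt, 537 and 507 in Wt 2 dpi and 161 and 169.8 in the mutant (log2 fold change -1.66, SE 0.17, edgeR adjusted p = 0.00092). All 6 genes of the origin recognition complex were called lower, with orc6 at 0.253 and 0.276 CPM in uninjured Wt, 31.5 and 28.8 in Wt 2 dpi and 5.59 and 6.03 in the mutant (log2 fold change -2.37, SE 0.23, edgeR adjusted p = 0.00092). The 4 GINS subunit genes of the helicase and both primase genes were also called lower (prim1 -1.6, prim2 -1.69 on the log2 scale). Those not called were the ligase gene lig1 (-0.58, edgeR adjusted p = 0.136), the Cdc7 partner dbf4 (-0.91, edgeR adjusted p = 0.346), recql4 (-1.2, edgeR adjusted p = 0.434) and dhfr (-0.78, edgeR adjusted p = 0.173).

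Of 11 other division genes, 4 were called lower and 7 were not called, with a median of -0.68. Over all genes 12.2% were called lower, and 38.4% among those called higher with injury. Against uninjured Wt, 5 of the 11 were called higher, where 12.2% of all genes and 51.5% of those called higher with injury were. The mitotic kinase gene plk1 stood at 0.387 and 0.92 CPM in uninjured Wt, 80.3 and 78.9 in Wt 2 dpi and 26.1 and 20.1 in the mutant (log2 fold change -1.79, SE 0.28, edgeR adjusted p = 0.00273). Among APC/C subunits, anapc1, anapc5 and cdc27 were called lower, with anapc5 at 6.2 and 8.12 CPM in uninjured Wt, 39 and 31.1 in Wt 2 dpi and 11.3 and 10.4 in the mutant (log2 fold change -1.69, SE 0.23, edgeR adjusted p = 0.0017). anapc7, anapc11 and anapc13 had positive estimates without a call (log2 fold changes 0.12, 0.12 and 0.62, edgeR adjusted p = 0.766, 0.839 and 0.209). Their injury log2 differences were -0.02, -0.18 and -0.20. Unlike the 43, the other division genes were not chosen for a rise with injury. cdc27, which was called lower, had an injury log2 difference of 0.40 without a call. In the study's other cell cycle sheets, 6 of 12 ccn, 7 of 14 cenp, 12 of 16 kinetochore, 9 of 10 mcm, 5 of 7 mitotic and 6 of 6 ncap genes had a lower call in the mutant, where 38.4% of all genes called higher with injury were called lower. In the cdk sheet, which is not limited to genes called higher with injury, 4 of 21 were called lower and 5 higher, with a median of -0.12, where 12.2% of all genes were called lower and 8.21% higher.

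**Figure D4:**
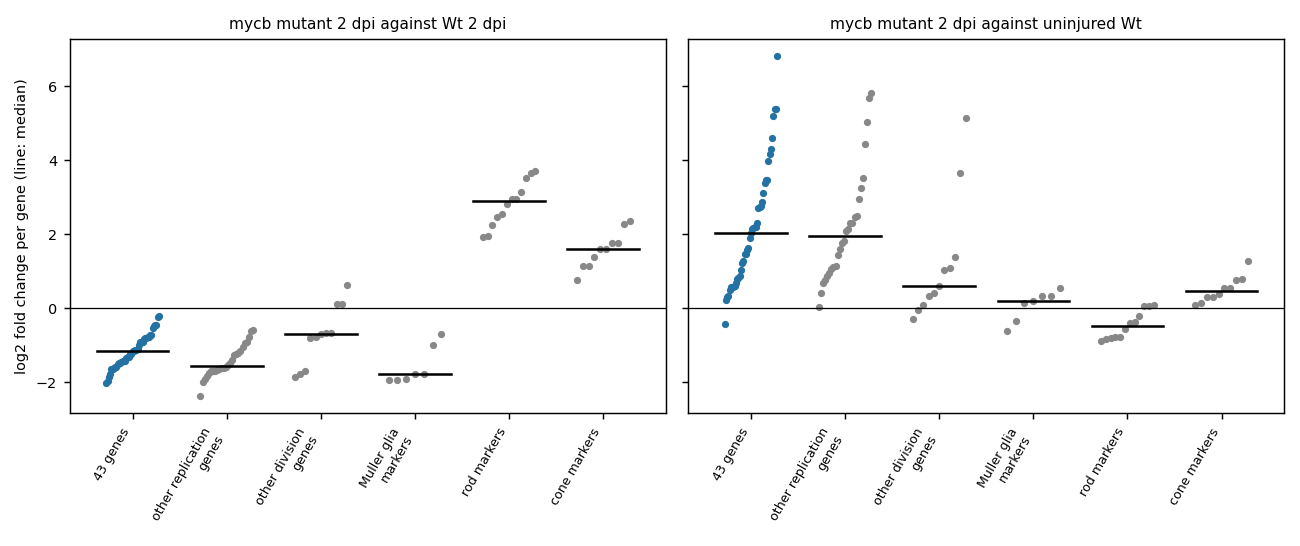
Log2 fold changes of single genes in the mycb mutant at 2 dpi against Wt 2 dpi (left) and against uninjured Wt (right), for the 43 genes, the other replication and division genes, and the marker lists, with a line at each median. Against Wt 2 dpi the 43 genes have a median of -1.15, Müller glia markers -1.79, rod markers 2.89 and cone markers 1.60. The markers come from genes listed for a change in the mutant, so their medians follow in part from that choice. They are not set against the median of the 43 genes.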

How the data were processed

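RNA of FACS-purified GFP+ MG was sequenced as poly(A)-selected libraries. The authors deposited raw counts per gene, listed by Ensembl identifier. Per the submitters' processing notes, reads were trimmed with cutadapt 2.3, checked with FastQC 0.11.8, and processed with STAR 2.7.8a, RSEM 1.3.3 and DESeq2, and the zebrafish build named is GRCz11. The deposited counts are whole numbers, which rounding of RSEM estimates would also give, and the strand setting is not given in the sources used here. Libraries were mapped to groups from their titles. Genes with low counts were removed by filterByExpr at a minimum count of 10, and 20329 of 23510 genes remained. A quasi-likelihood model (edgeR 4.0.16, R 4.3.3, TMM scaling) had 1 coefficient per group over all 6 libraries and 3 residual degrees of freedom. Calls required a Benjamini-Hochberg adjusted p of at most 0.05 and a log2 fold change above 0.5 in size. The study's FPKM threshold was not applied. Standard errors were taken from the log2 fold change and its quasi-likelihood F. The script was tested on simulated data. Alternatives, DESeq2 1.42.0 among them, are in the closing section. The members and all gene lists were chosen with earlier results of these data known. Named were all 43 genes by role, the 2 genes just outside the list, and genes of the pathway and marker lists. The Ensembl identifiers of the 43 genes come from the study's table, and a reference table gave the same name for 40 of them, while all 43 matched by NCBI gene number. Other pathway genes were found by name in the reference table, where 37 had a single identifier, and donson, claspn, rrm2, fzr1a, incenp and birc5a did not and were left out. Marker identifiers were found by their mean count, a rule that was right for 128 of 129 known identifiers and wrong for 0. The mycb transcript itself was not analysed here, since the tables used do not separate it by name from the other zebrafish MYC gene.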

Additional observations from a re-analysis of the deposited data

How the results depend on the processing

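The settings tried were other scalings (RLE, library size only, TMM factors without photoreceptor markers), DESeq2, no filter on low counts, other call rules (adjusted p alone, glmTreat against 0.5), fits of only the groups compared, a replicate block, and the omission of each library. The number of genes called lower against Wt 2 dpi, 32, was between 29 and 36 under these settings except glmTreat, which gave 19, and the omission of a library, which gave 14 to 34. The number called higher was 0 in every setting. The number called higher than in uninjured Wt, 34, ranged from 27 (glmTreat) to 36, and from 28 to 33 with a library left out. The median log2 fold change against Wt 2 dpi, -1.15, was -1.28 with library size only, -1.01 in the fit of the compared groups only, and -1.19 to -1.01 with a library left out. The median over all genes moved with the scaling, from -0.13 to -0.25 with library size only and to 0.02 in the fit of the compared groups, and relative to it the median of the 43 genes was -1.03 in all 3. The median against uninjured Wt, 2.04, was 1.93 with library size only and 1.73 to 2.21 with a library left out. Over 43 genes, 2 mutant comparisons and 15 alternatives there were 1290 estimates. A call was lost in 120, gained in 24 and unchanged in 1146, and none changed sign with a call. The setting with adjusted p alone kept the main fit and dropped the fold limit, so it could not lose a call. Against Wt 2 dpi, that setting and TMM without photoreceptor markers changed no call of the 43 genes. DESeq2 lost cdc45, cdca7a and smu1b among the genes called lower, and RLE size factors lost bod1, cdc25b and smu1b. Without mutant replicate 2, the estimates of polq and parp3 reached 0.01 without a call. The count of other pathway genes called lower, 26, was recomputed by a choice made after seeing the data. It was 15 with glmTreat and 14 to 27 with a library left out, with 14, 17 and 14 without Wt 2 dpi replicate 1, mutant replicate 1 and mutant replicate 2. Replicates 1 and 2 occur in each group, but libraries with the same number did not deviate together (correlations 0.0076, 0.0286 and -0.0508, with only 2 numbers). With the replicate block, 32 genes were called lower against Wt 2 dpi (smu1b lost, ticrr gained), 0 were called higher, and 35 were called higher than in uninjured Wt, with medians of -1.22 and 2.06. With 2 libraries per group and a common biological coefficient of variation of 0.396, several genes near 0 CPM without injury had wide intervals, such as cdc7, pole2 and polq. Others under 1 CPM did not, such as pole (SE 0.21 against Wt 2 dpi).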

Other observations

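Some of the 26 other replication genes counted above supply nucleotides for DNA synthesis (tyms, rrm1, tk1, dut and dhfr). Their mutant means stood between the means of uninjured Wt and Wt 2 dpi. The same held for 3263 of the 3904 genes called higher with injury. tyms, which encodes thymidylate synthase, stood at 0.606 and 0.221 CPM in uninjured Wt, 77.7 and 94.9 in Wt 2 dpi and 24.7 and 18.5 in the mutant (log2 fold change -2.0, SE 0.29, edgeR adjusted p = 0.00209). rrm1, the large subunit of ribonucleotide reductase, stood at 11.5 and 15.2 CPM in uninjured Wt, 214 and 218 in Wt 2 dpi and 71.2 and 78.2 in the mutant (log2 fold change -1.53, SE 0.19, edgeR adjusted p = 0.00119). For both genes the mutant libraries were below both Wt 2 dpi libraries, as for 80.9% of all genes called higher with injury. The thymidine kinase gene tk1 and dut, whose product removes dUTP, had log2 fold changes of -1.49 and -1.04 (edgeR adjusted p = 0.014 and 0.00553). dhfr, which regenerates tetrahydrofolate, was not called, and its mutant libraries differed from each other, at 14.2 and 25.7 CPM against 35.5 and 33.1 CPM in Wt 2 dpi.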
